A study of Mus musculus with 12 samples.

Results

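The 4 arrays described here hold RNA of unstimulated control endothelial cells, chosen by their label out of 12 arrays in the series. The cells came from newborn wild-type mice, were mock-transfected, and were grown in DMEM with 10% FCS, 2 mM glutamine, penicillin and streptomycin, and about 5 µg of total RNA went onto each Affymetrix mouse array. The other 8 arrays carry cells with stably transfected tmTNF, a non-cleavable transmembrane form of tumour necrosis factor (4 arrays), or cells that had soluble TNF in the medium, 20 ng/ml over 4 h (4 arrays). The labels do not say whether the 4 control replicates were separate cultures, clones or animals, so the spread between them may be technical in part or in whole. They form 1 group, so the values are described and no test between groups was run.

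Endothelial cells line blood vessels, and in the resting state they keep a closed barrier, hold leukocytes off their surface and make nitric oxide. Their identity is kept by transcription factors of the ETS and SOX families, and is read from the adhesion molecules PECAM1 and VE-cadherin, the receptor kinases TIE2 and VEGFR2, and endothelial nitric oxide synthase. TNF turns such cells to an inflamed state through the receptors TNFR1 and TNFR2 and the transcription factor NF-kB, which switches on E-selectin, VCAM1, ICAM1 and chemokines. The control cells had no such stimulus, per the labels.

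Each array was scaled to a trimmed mean signal of 500. Signals are on that linear scale throughout, always in the order of control replicates 1, 2, 3 and 4, and means and standard deviations (SD) over the 4 arrays are of log2(signal + 16). A signal of 100 stands in for background. Probe sets differ in how strongly they bind, so a rank is a place among probe sets and not a comparison of transcript amounts between genes.

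The arrays had 17889 to 18359 probe sets at 100 or more, Actb 3'/5' signal ratios of 1.19 to 1.29 and Gapdh ratios of 0.757 to 0.843. The control probe set for the B1 repeat gave 2764, 2186, 20321 and 12744, high on control replicates 3 and 4, and the 3' probe set of the control transcript dap gave 705, 2059, 1030.0 and 1079, highest on replicate 2. Their part in the results was not tested. Across the 9734 genes with a mean of at least that of a signal of 100, the correlation between arrays (Pearson's r, across genes, which are not independent) was highest for control replicates 2 and 4, at 0.877, and lowest for 2 and 3, at 0.725. Between these last arrays 952 genes lay at least 4-fold apart, against 338 genes between replicates 2 and 4. Control replicate 3 stood apart in its endothelial genes, as given below. Of 93 named genes with an SD of 1 or more, many of them named for their spread, 27 were under 1 without it. Leaving out replicate 1, 2 or 4 in its place took 11, 8 and 2 of them under 1. Over all 9734 genes the contrast was small. With all arrays 1408 had an SD of 1 or more, and without replicate 1, 2, 3 or 4 the counts were 1273, 1496, 1247 and 1593.

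Of 18193 genes, 8592 (47.2%) reached a signal of 100 on all 4 arrays and 7263 (39.9%) on none. The remaining genes reached it on some arrays only, namely 924 on 1 array, 644 on 2 and 770 on 3. Spread fell with level. Genes with mean signals of 100 to 1000 had a median SD of 0.542, those of 1000 to 10000 had 0.450, and the 275 above 10000 had 0.247.

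**Figure D1:**
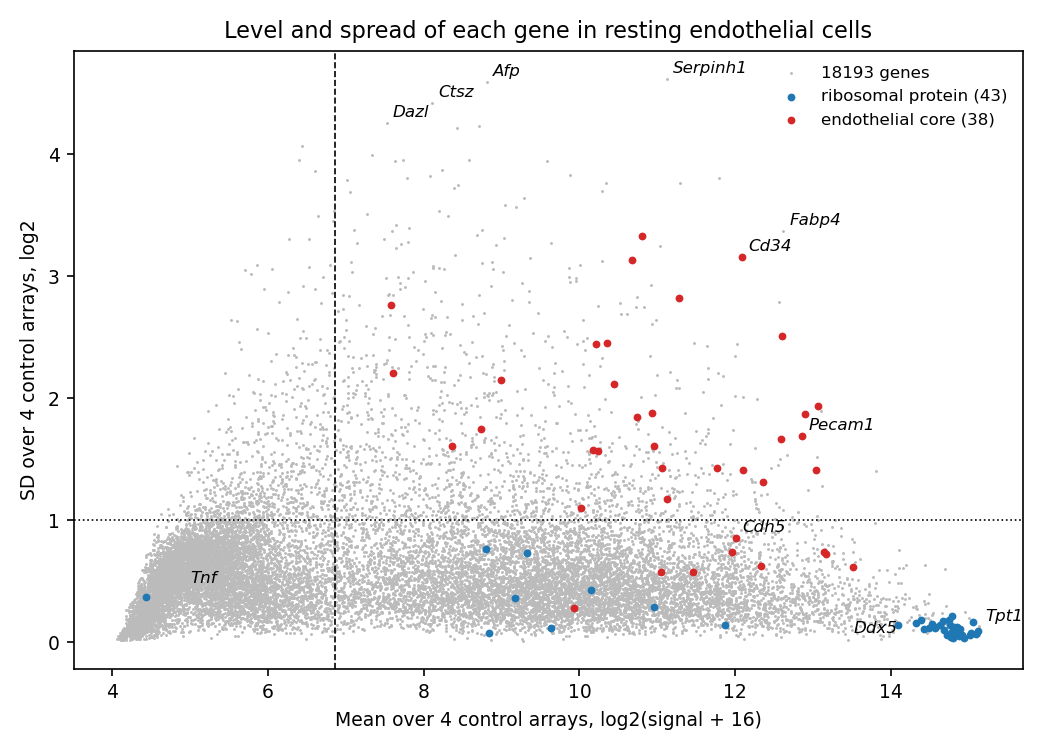
Mean (x axis, log2 of signal + 16) and SD (y axis, log2) of each of 18193 genes over the 4 control arrays; blue points are ribosomal protein genes, red points endothelial core genes, the dashed line marks a signal of 100 and the dotted line an SD of 1. Ribosomal protein genes crowd at the bright, steady corner with a median SD of 0.116, and endothelial core genes lie far above them with a median SD of 1.61.

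The brightest genes were mostly those of translation and of the cytoskeleton. First by mean was Tpt1, the translationally controlled tumour protein, at 33016, 40423, 36896 and 34594. The next places went to the galectin Lgals1 at 33370.5, 33532, 39742 and 38273 and the intermediate filament gene Vim at 34604, 39302, 33449.5 and 37043. The 25 brightest genes lay between 25396 and 40424 on every array, with SDs of 0.034 to 0.25, so their signals hardly differed between arrays. The highest signal on an array was 38273 to 43223, so these genes lay near the top of the scale. Whether a ceiling on signal narrowed the spread of bright genes was not tested. Vimentin is the filament protein of mesenchymal and endothelial cells, while galectin-1 binds cell surface sugars.

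Of these 25, 17 carried the symbol of a ribosomal protein, led by Rps3a1 at 35005, 38936, 36677 and 32860.3 and Rps29 at 33121, 38402, 34584 and 36370.3. The others included the elongation factor Eef1a1, the ferritin heavy chain Fth1, which stores iron, the actins Actg1 and Actb, and the actin-binding peptide Tmsb4x. Actb gave 26446, 30139.9, 27842 and 31159. Tmsb4x had the widest spread of the 25, from 25396 on control replicate 3 to 37530.3 on replicate 2. The first gene below the 25 was Rps4x, with a mean log2 of 14.78 against 14.79 for Rpl37a, the last of the 25.

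Among the 100 brightest genes, 36 had ribosomal protein symbols, 11 were in the cytoskeleton list and 8 in the translation factor list. The cytoskeleton list also holds Lgals1, and the translation factor list also holds Tpt1 and Naca. Of the 100, 3 were glycolytic and 3 of oxidative phosphorylation. None of the 100 was in the endothelial core list, and 32 were in no list. Sparc, a matrix-binding glycoprotein made by many endothelial cells, was in place 35 at 23055, 40365, 15809.6 and 33573, highest on control replicate 2 and lowest on 3. Beta-2-microglobulin, B2m, the light chain of MHC class I, gave 24864, 28956, 27256 and 23699.7. No gene of the 100 had an SD of 1 or more.

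Gene lists fell in a clear order of level. The ribosomal protein list had 43 measured members, 42 of them at 100 on all 4 arrays, a median percentile of 99.8 (100 being the brightest gene) and a median SD of 0.116. The translation factor list followed at a median percentile of 99.5 (16 of 16 at 100 on all arrays), the cytoskeleton list at 99.0 (31 of 33) and oxidative phosphorylation at 98.2 (40 of 41). By construction the median over all genes is near 50, and 47.2% of all genes reached 100 on all arrays.

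Mitochondrial genes were bright and even. Uqcrb, a subunit of complex III, gave 25229.7, 31031, 24597 and 27517. Cox6a1, of complex IV, gave 20457, 27540.5, 22607 and 22877, and Atp5b, the catalytic subunit of ATP synthase, 15727, 17234, 15446 and 17857. The largest spread of the 40 members above background was that of Uqcrh, another subunit of complex III, at 6406, 8963, 1991 and 4803 (SD 0.93), lowest on control replicate 3, without which the SD was 0.45.

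Glycolytic genes were as bright at the top of the list and less even. Pgk1 gave 22797, 16702, 29409 and 20824, Pkm 20103, 12444, 16333 and 14269 and Ldha 14281, 15955, 22848 and 15968. Of the 14 members with means above background, 8 were highest on control replicate 3, as were 26.2% of all genes above background, and 7 were lowest on replicate 2, as were 24.2%. The hexokinase Hk2, which traps glucose in the cell, ran from 22.1 on replicate 2 to 2782 on replicate 3. The glucose transporter Slc2a1 gave 7366, 1688, 4864 and 1835, high on replicates 1 and 3.

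**Figure D2:**
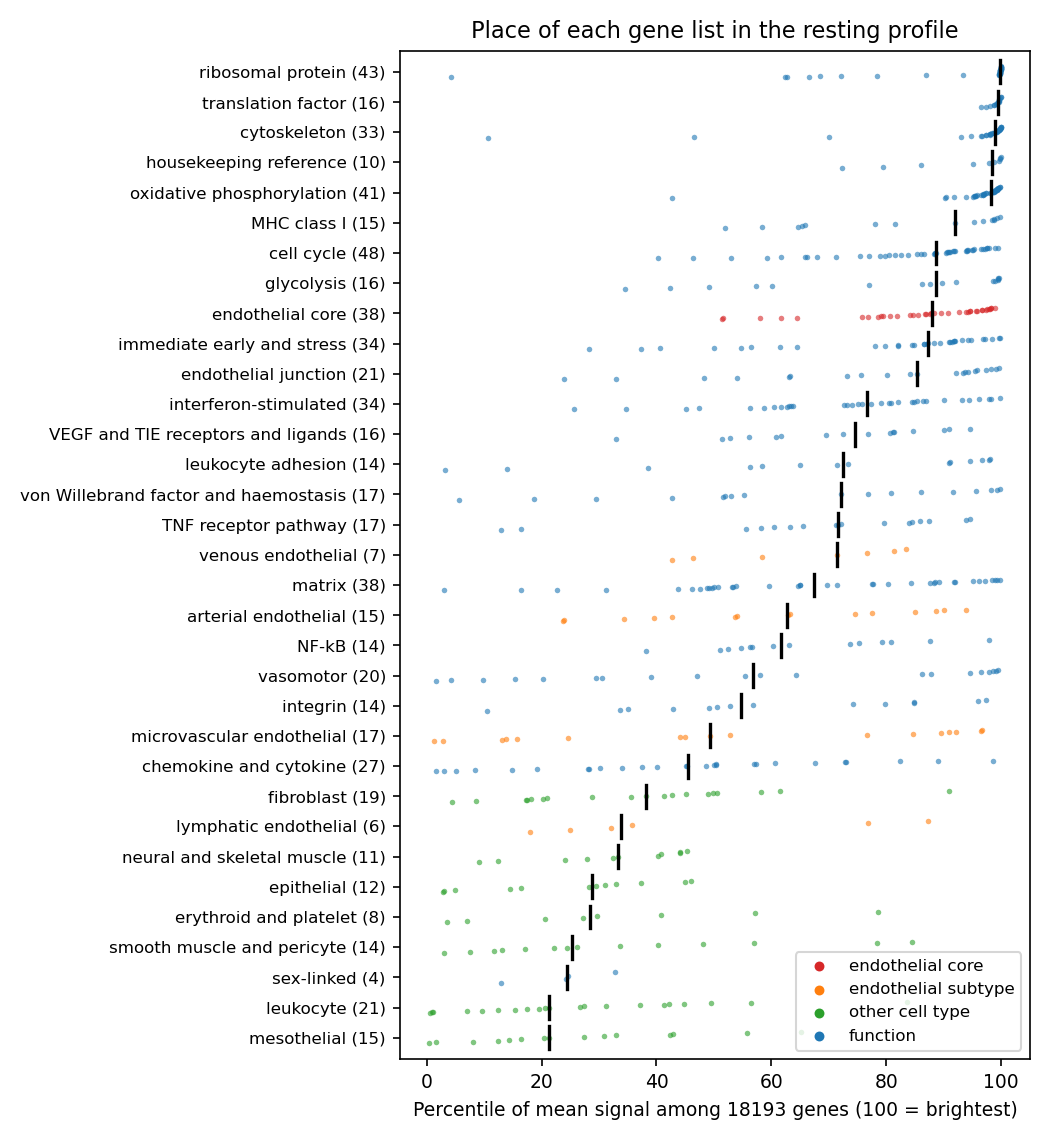
Percentile of mean signal among 18193 genes (x axis, 100 = brightest) for every measured member (points) of 33 gene lists (y axis, number of measured members in brackets); black bars are list medians. Ribosomal protein genes have a median of 99.8 and endothelial core genes 88.0, while lists of other cell types have medians of 38.1 or less.

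Endothelial identity genes were present. All 38 measured genes of the endothelial core list had means above background, 29 (76.3%) reached 100 on all 4 arrays, 0 stayed under it on all 4, and the median percentile was 88.0. Of all genes, 47.2% reached 100 on all 4 arrays and 39.9% on none. By mean, Mmrn2, an endothelial matrix glycoprotein, led at 13348, 16501, 6242 and 13675. Procr, the endothelial protein C receptor, gave 12444, 7114, 5203 and 15393, and Esam, a junctional adhesion molecule, 12151, 12952, 4239 and 9819.9.

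Of the 5 markers, Pecam1, the junctional adhesion molecule CD31, gave 12666, 12775, 1279.5 and 14688. It was even on control replicates 1, 2 and 4 and low on 3, an 11.5-fold range. Without replicate 3 its SD went from 1.69 to 0.12. Nos3, endothelial nitric oxide synthase, gave 19272, 10009, 2045 and 12446, highest on replicate 1 and lowest on 3, a 9.42-fold range.

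Cdh5, VE-cadherin of the adherens junction, gave 2815, 7305, 2200.1 and 6333. It had the smallest range of the 5 markers at 3.32-fold, with control replicates 1 and 3 low and 2 and 4 high. Kdr, the VEGF receptor VEGFR2, gave 1227, 6086, 312 and 3400.2, a 19.5-fold range. Tek, the angiopoietin receptor TIE2, gave 1421, 4232, 98.8 and 4149, and its value on replicate 3 lay just under 100, so that replicate 2 was at least 42.3-fold higher. All 5 markers were lowest on control replicate 3.

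**Figure D3:**
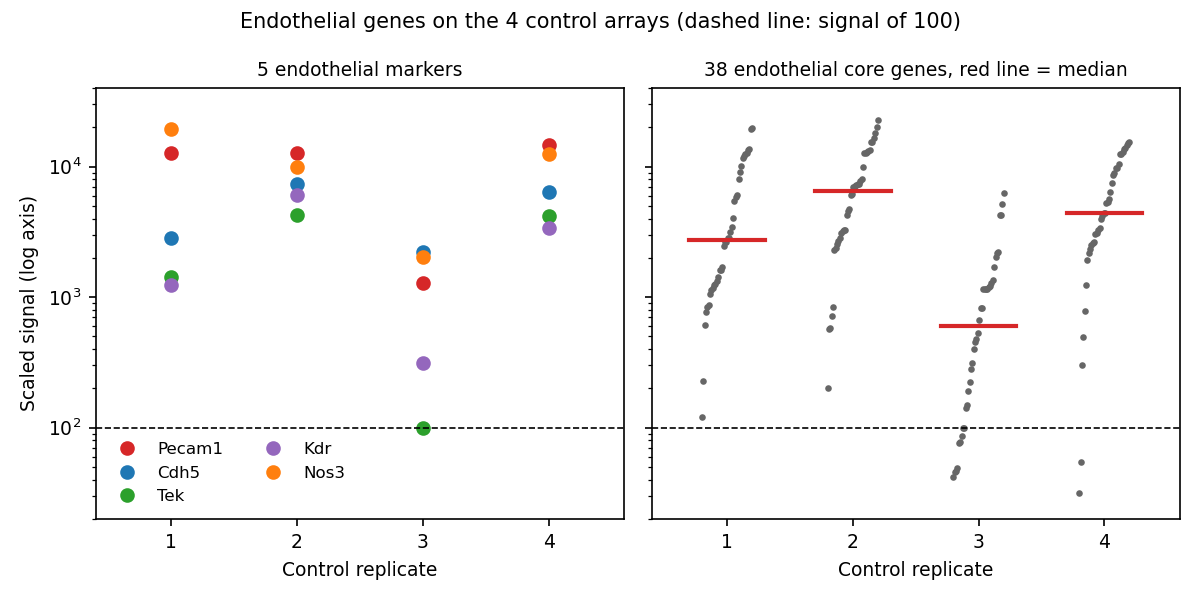
Scaled signal (y axis, log scale) on each control array (x axis) of 5 endothelial markers (left) and of all 38 endothelial core genes, with the list median in red (right); the dashed line marks a signal of 100. All 5 markers are lowest on control replicate 3, where the list median is 596 against 2728 to 6544 on the other arrays.

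The rest of the core list took the same course. Its median signal was 2728, 6544, 596 and 4400.4 on the 4 arrays. The number of members at 100 or more was 38, 38, 29 and 36. Control replicate 3 had the lowest value for 35 of the 38 genes, whereas over all 9734 genes above background it had the lowest for 25%.

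Cd34, a sialomucin of small vessels, gave 13518, 15486, 149.6 and 10525, a 103.5-fold range with control replicate 3 far under the other 3 arrays. Cldn5, the tight junction claudin of brain and other endothelium, gave 1056, 13357, 77.8 and 5254, at least 134-fold apart. Clec14a, an endothelial C-type lectin, gave 2641, 7298, 45.6 and 8577, at least 85.8-fold apart. For these 3 genes, replicate 3 alone lay near or under background.

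Emcn, a sialoglycoprotein of capillaries and veins, gave 19699, 18236, 1158 and 12962. The receptor kinase gene Tie1 gave 5492, 12742, 1188 and 4393, and Icam2, the constitutive leukocyte ligand of the endothelium, 5840.4, 13083, 1221 and 15276. Other core genes were bright on a single array: Aplnr, the apelin receptor, on control replicate 2, at 121, 3114, 48.7 and 31.6, and Vwf, von Willebrand factor, on replicate 1, at 1612, 201, 41.6 and 54.9. In RNA from whole cultures, fewer endothelial cells and less endothelial RNA per cell cannot be told apart.

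Over the core list the median SD was 1.61, and 29 of 38 members (76.3%) had an SD of 1 or more, beside 1408 of 9734 genes (14.5%) in all. Without control replicate 3 the median SD was 0.667 and 11 of 38 reached 1, beside 1247 of the same 9734 genes. Leaving out replicate 1, 2 or 4 left the list's median SD at 1.70 to 1.85. Among single genes, leaving out replicate 3 took the SD of Cd34 from 3.16 to 0.28, that of Emcn from 1.93 to 0.32 and that of Nos3 from 1.41 to 0.48. The SD of Tek went from 2.45 to 0.90, whereas Kdr, from 1.85 to 1.16, and Cldn5, from 3.13 to 1.84, kept an SD above 1 over the other 3 arrays.

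The promoters of Tek and Kdr are shown because these receptor genes were the 2 lowest of the 5 markers on control replicate 3. No window of the other markers, Pecam1, Cdh5 and Nos3, was among those at hand, so these are named only. Each run is the 250 bases before the start, from RefSeq on GRCm38.p6, 5′ to 3′ on the gene's strand. Tek lies at chr4:94739039-94739288 on the plus strand and Kdr at chr5:75978456-75978705 on the minus strand. Capitals mark GGAA or its complement TTCC, the core letters that ETS factors read.
Tek: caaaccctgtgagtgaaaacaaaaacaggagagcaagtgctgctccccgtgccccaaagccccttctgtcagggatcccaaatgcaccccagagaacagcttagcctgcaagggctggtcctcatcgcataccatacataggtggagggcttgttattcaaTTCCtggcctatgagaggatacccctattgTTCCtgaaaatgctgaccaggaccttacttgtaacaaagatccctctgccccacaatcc
Kdr: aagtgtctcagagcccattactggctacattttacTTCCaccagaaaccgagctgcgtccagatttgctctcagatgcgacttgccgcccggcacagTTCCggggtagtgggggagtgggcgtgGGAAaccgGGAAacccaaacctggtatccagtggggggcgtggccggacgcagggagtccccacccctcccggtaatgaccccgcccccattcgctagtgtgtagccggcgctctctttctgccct
Tek held 2 such cores and Kdr 4, counted on both strands. The letters are common: 93.4% of 32851 promoter windows of this length held at least 1, as did 20 of 22 windows that belong to 17 of the 38 endothelial core genes. A match is a description of the letters and not a binding site. Binding was not measured.

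Genes of vessel subtypes were mixed. Among arterial genes, 7 of 15 (46.7%) reached 100 on all 4 arrays, near the 47.2% of all genes. Efnb2, the arterial ephrin ligand, was the steadiest of the brighter ones at 3139.7, 5310.4, 2779.6 and 5151, while the Notch ligand Dll4 gave 203, 1654, 80.1 and 1378 and the gap junction gene Gja4 112, 1706, 24 and 351, both highest on control replicate 2 and lowest on 3. Of venous genes, 4 of 7 (57.1%) reached 100 on all arrays. Among them were Nr2f2, the transcription factor COUP-TFII, at 444, 1654, 1461 and 964, and Ephb4, the partner of ephrin-B2, at 1843, 3900.0, 443 and 1707.

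Lymphatic markers disagreed with each other. Prox1, the transcription factor that sets lymphatic fate, stayed under 100 on all arrays at 33.8, 0.8, 18 and 18.9, as did Pdpn, podoplanin, at 50.9, 26.6, 14.5 and 48.2. Lyve1, a hyaluronan receptor of lymphatic and some blood vessel endothelium, gave 6850.5, 118, 4853 and 3776, near background on control replicate 2 alone. Flt4, the VEGF-C receptor, gave 865, 2561, 397 and 1246.

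Of 17 microvascular genes, 6 (35.3%) reached 100 on all 4 arrays and 6 on none, beside 47.2% and 39.9% of all genes. The list's median percentile was 49.4. Its brighter members held some of the widest spreads of bright genes. Fabp4, a fatty acid carrier of capillaries, gave 181, 32975, 14397 and 16438, a 182-fold range with control replicate 1 low. Its relative Fabp5 gave 393, 35338, 6037 and 15126, again lowest on replicate 1. Gpihbp1, which holds lipoprotein lipase on capillary walls, gave 819, 17022, 76.6 and 843, far higher on replicate 2 than on the rest.

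Receptors and ligands of the VEGF and TIE systems had 9 of 16 members (56.2%) at 100 on all arrays, beside 47.2% of all genes. Their median SD was 1.75, beside 0.488 over all genes above background. The coreceptors Nrp1, at 7064, 5253, 379 and 3209.9, and Nrp2, at 2450.1, 2415, 251 and 2080.2, were both lowest on control replicate 3, without which the SD of Nrp2 went from 1.56 to 0.13. Apln, the ligand of the apelin receptor, gave 2909.7, 2716, 887 and 9209.8, highest on replicate 4. Angptl4, a lipase inhibitor, went the other way at 116, 8.9, 2004 and 959, highest on replicate 3. A dimmer probe set of Angptl4 read 25.9, 15.2, 17.8 and 31.7, under 100 on all arrays. Of the 15 members with means above background, 13 (86.7%) had an SD of 1 or more, beside 14.5% of all such genes. Without replicate 3 it was 7 members (46.7%), beside 12.8%.

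Vasomotor and haemostatic genes gave both steady and unsteady members. Caveolin-1, Cav1, the coat protein of caveolae, gave 19727, 16979.6, 9777 and 20453, and its partner Cav2 12473, 18089, 4082 and 13398. The endothelin receptor Ednrb gave 11097, 16945, 822 and 2345, high on control replicates 1 and 2. Thbd, thrombomodulin, gave 9045, 3273, 4232 and 5680.2 and was above background on every array. Ptgs2, the inducible cyclooxygenase COX-2, gave 19480.4, 91.3, 707 and 249, a bright signal on replicate 1 that was at least 195-fold above replicate 2. Its second probe set read 17297, 43.8, 295 and 152. Edn1, the precursor of the vasoconstrictor endothelin-1, stayed under 100 on all arrays, at 9.7, 6.3, 49.1 and 3.9.

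Markers of other cell types were mostly at background. In the leukocyte list, 2 of 21 genes reached 100 on all arrays and 17 on none, beside 47.2% and 39.9% of all genes. Ptprc, the pan-leukocyte antigen CD45, read 22.3, 15.9, 20.0 and 1.0. The 2 at 100 on all arrays were Csf1r at 183, 154, 105 and 129 and Cd68, a lysosomal glycoprotein abundant in macrophages, at 18210.0, 520.1, 2285 and 255, bright on control replicate 1. The other 2 reached 100 on some arrays only: Cd14, a lipopolysaccharide coreceptor, at 265, 37.1, 1406 and 330.2, highest on replicate 3, and the lysozyme gene Lyz2 at 42.8, 5.1, 31.1 and 201, on replicate 4 alone. In the erythroid and platelet list 2 of 8 genes reached 100 on all arrays and 5 on none. Pf4, platelet factor 4, gave 415, 429, 1892 and 4650.3, and Itga2b, the platelet integrin subunit, 319, 556, 185 and 217, whereas Gp9 reached 100 on replicate 2 alone. In the epithelial list 0 of 12 and in the neural and muscle list 0 of 11 reached 100 on all arrays.

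The mesothelial list had 1 of 15 members at 100 on all arrays and 11 on none, with list means of 5.50, 5.18, 6.40 and 5.40 on the log2 scale. Keratin 19, Krt19, gave 166, 217, 7119.8 and 249, Msln, mesothelin, gave 216, 53.5, 3412 and 91.6 and the retinaldehyde dehydrogenase Aldh1a1 gave 12.8, 1.3, 5066 and 4.2. These 3 were high on control replicate 3, the array low in endothelial genes. The defining mesothelial genes Upk3b, at 3.5, 5.3, 3.4 and 2.4, and Wt1, at 6.9, 22.5, 17.7 and 6.5, were near 0 on that array too.

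Fibroblast genes gave list means of 5.64, 5.79, 7.08 and 7.02, with 2, 2, 7 and 8 of 19 members at 100 or more. The collagen genes Col3a1, at 6.0, 48.6, 4547 and 1901, and Col1a2, at 74.5, 89, 4009 and 769, were high on control replicates 3 and 4. Pdgfra, a mesenchymal growth factor receptor, gave 112, 61.1, 579 and 144. Thy1, Dcn and Lum, usual fibroblast markers, stayed under 100 on all arrays. On replicates 3 and 4 the B1 repeat gave 20321 and 12744, and the core list medians were 596 and 4400.4. Whether the fibroblast genes or the B1 repeat had a part in the low endothelial signals of replicate 3 was not tested.

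Smooth muscle markers were also sparse, with 2 of 14 (14.3%) at 100 on all arrays, beside 47.2% of all genes. Mylk, myosin light chain kinase, gave 1568, 2497, 963 and 2007, and Acta2, smooth muscle actin, 506, 98.3, 121 and 1043. Tagln, Cnn1 and Pdgfrb were under 100 on every array. Sex-linked genes gave no signal above background: Xist read 32.3, 53.3, 26.4 and 27.8, and the Y-linked Eif2s3y, Kdm5d and Uty also stayed under 100 on all 4 arrays.

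Most genes of the TNF receptor pathway were above background at rest. Of 17 measured members, 15 (88.2%) reached 100 on all arrays, beside 47.2% of all genes. The 15 members with means above background had a median SD of 0.404, beside 0.488 over all such genes. None had an SD of 1 or more, beside 14.5% of all such genes, and 1 had without control replicate 1 or without 4. Tnfrsf1a, TNFR1, gave 4403, 6340.3, 3107 and 3971. Tnfrsf1b, TNFR2, gave 358, 174, 485 and 140.0, with all 4 arrays above background in this probe set. A dimmer probe set of Tnfrsf1b read 175.8, 74.8, 193.5 and 88.8, under 100 on control replicates 2 and 4. Tnf itself, the ligand, was under 100 on all arrays at 7.4, 7.3, 20.9 and 25.7.

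Other members of that list had ranges of 1.31-fold for Tab2, 1.96-fold for Casp8, 1.78-fold for Adam17 and 4.92-fold for Traf5. The adaptor Tab2 gave 3769, 4225, 4533 and 3468, the initiator caspase gene Casp8 1487, 2185, 1885 and 2918 and the TNF-releasing protease gene Adam17 1389, 1726, 1921 and 2475. The adaptor Traf5 had the largest spread of the list at 460.0, 584, 119 and 304 (SD 0.95), lowest on control replicate 3, without which the SD was 0.46.

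NF-kB genes reached 100 on all arrays in 12 of 14 cases (85.7%), beside 47.2% of all genes. Rela, the p65 subunit, gave 1520.3, 2535, 2141 and 2374, and the inhibitor Nfkbia 4164, 12231, 10985 and 9505, lowest on control replicate 1. Nfkbiz, an inducible nuclear regulator, gave 1042, 690.5, 3511 and 757, highest on replicate 3, and Nfkbie 260.4, 1097, 61.9 and 62.7, highest on replicate 2. These last were the list's 2 members with an SD of 1 or more, and without replicate 3 the SD of Nfkbiz was 0.31.

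Adhesion genes that TNF is known to induce were low or uneven. Icam1 stayed at background, at 15.1, 27, 8.4 and 3.9. Sele, E-selectin, gave 1185, 112, 324 and 1420.2, high on control replicates 1 and 4 and just above 100 on 2. Vcam1 gave 188, 81.7, 2058 and 296, highest on replicate 3 and under 100 on 2. Selp, P-selectin, gave 4705, 547, 258 and 431, highest on replicate 1. The constitutive members Cd47, at 8933, 6568, 13789 and 7655, and Podxl, podocalyxin, at 9704, 10187, 5898 and 8144, were bright on every array.

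Chemokines and cytokines had 6 of 27 members (22.2%) at 100 on all arrays and 12 on none, beside 47.2% and 39.9% of all genes. The brightest was Kitl, stem cell factor, at 9462, 14259.5, 8659 and 10968. Ccl2, the monocyte chemoattractant, gave 1950.0, 560.1, 3021 and 9514, highest on control replicate 4. Csf1, the macrophage growth factor, gave 963, 902, 4222 and 1118, with replicate 3 apart from the rest.

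Single inflammatory genes were high at rest on control replicate 1, but the chemokine and cytokine list and the NF-kB list were not. Of members with means above background, that array was highest for 3 of 13 chemokines and cytokines and 2 of 13 NF-kB genes. The share over all genes was 27.3%. In the haemostasis list, which holds Ptgs2, replicate 1 was highest for 7 of 13 such members. It was highest for 2 of 5 in the venous list, which holds Selp, and 2 of 3 in the leukocyte list, which holds Cd68. Il6 gave 6033, 42.9, 1619.5 and 231, at least 60.3-fold higher on replicate 1 than on 2. The neutrophil chemokine genes Cxcl1, at 2075, 195, 2707 and 389.9, and Cxcl2, at 1478, 104, 722 and 49.8, were high on replicates 1 and 3. Replicate 1 was thus the brightest array for Il6, Ptgs2, Selp and Cd68, but not for Ccl2, Vcam1 or Sele.

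MHC class I genes were bright. H2-D1 and H2-K1, heavy chains, gave 17095, 17472, 13402 and 12347 and 12749.5, 13714, 10064 and 8918. The list's median percentile was 91.9 and its median SD 0.525, beside 0.488 over all genes above background. None of its 15 members had an SD of 1 or more, beside 14.5% of all such genes.

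Interferon-stimulated genes reached 100 on all arrays in 29 of 34 cases (85.3%), beside 47.2% of all genes. Control replicate 1 was the lowest array for 23 of the 31 members with means above background, beside 28.4% of all genes. The list means of these 31 were 9.46, 10.66, 10.64 and 10.46. Ifi35 gave 3924, 10288, 13347 and 9433, Usp18, which damps interferon receptor signals, 412, 1724, 5722 and 1793, and the nucleotide kinase gene Cmpk2 102, 837, 340.4 and 1307. Without replicate 1 the list's median SD went from 0.794 to 0.363 and its members with an SD of 1 or more from 7 to 1. Over all genes above background the share with such an SD went from 14.5% to 13.1%. Ifitm3, a membrane antiviral protein, was the brightest at 26577, 27961, 19479.6 and 22661 and did not share the pattern.

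Cell cycle genes were mostly above background, with 45 of 48 (93.8%) at 100 on all arrays, beside 47.2% of all genes. Control replicate 4 was highest for 35 of the 46 members with means above background, beside 19.8% of all genes. Replicate 1 was lowest for 28 of these 46, beside 28.4% of all genes. The list means of these 46 were 10.50, 11.49, 10.68 and 12.03. Ube2c, which acts in mitotic exit, gave 5426, 9468, 4946 and 18680.4, and thymidine kinase, Tk1, 721, 4059, 2293 and 9658. Pcna, the sliding clamp of replication, was the brightest at 13689.5, 21451, 12737 and 25194. The inhibitor Cdkn2b ran against them at 2915, 352, 48.3 and 16.2, highest on replicate 1. Ribonucleotide reductase, Rrm2, was highest on replicate 3 at 3316, 4183, 18996 and 13993.

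Stress genes differed in which arrays they were high on. Of the 14 immediate early and stress genes with an SD of 1 or more, 7 were high on control replicates 1 and 3 together. That is by the widest gap among their values, and 103 of all 1408 genes with such an SD (7.3%) were placed so. Atf4, the factor of the integrated stress response, gave 13835, 6949.5, 17206 and 5444, high on control replicates 1 and 3. Asns, asparagine synthetase, gave 13356, 5096, 12924 and 2947, and Gadd45a, a growth arrest gene, 12111, 578, 6648 and 283, both with the same pair high. The heme oxygenase gene Hmox1 gave 18327, 442, 3890.5 and 247, again above 1000 on replicates 1 and 3 only. The ATF4 targets Ddit3, at 12315, 1549.5, 12904 and 394, and Trib3, at 6732, 895, 7767 and 343, picked after their values were seen, split the same way. The chaperone Hspa8, by contrast, gave 23841, 23911, 28126 and 28863 with an SD of 0.15.

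**Figure D4:**
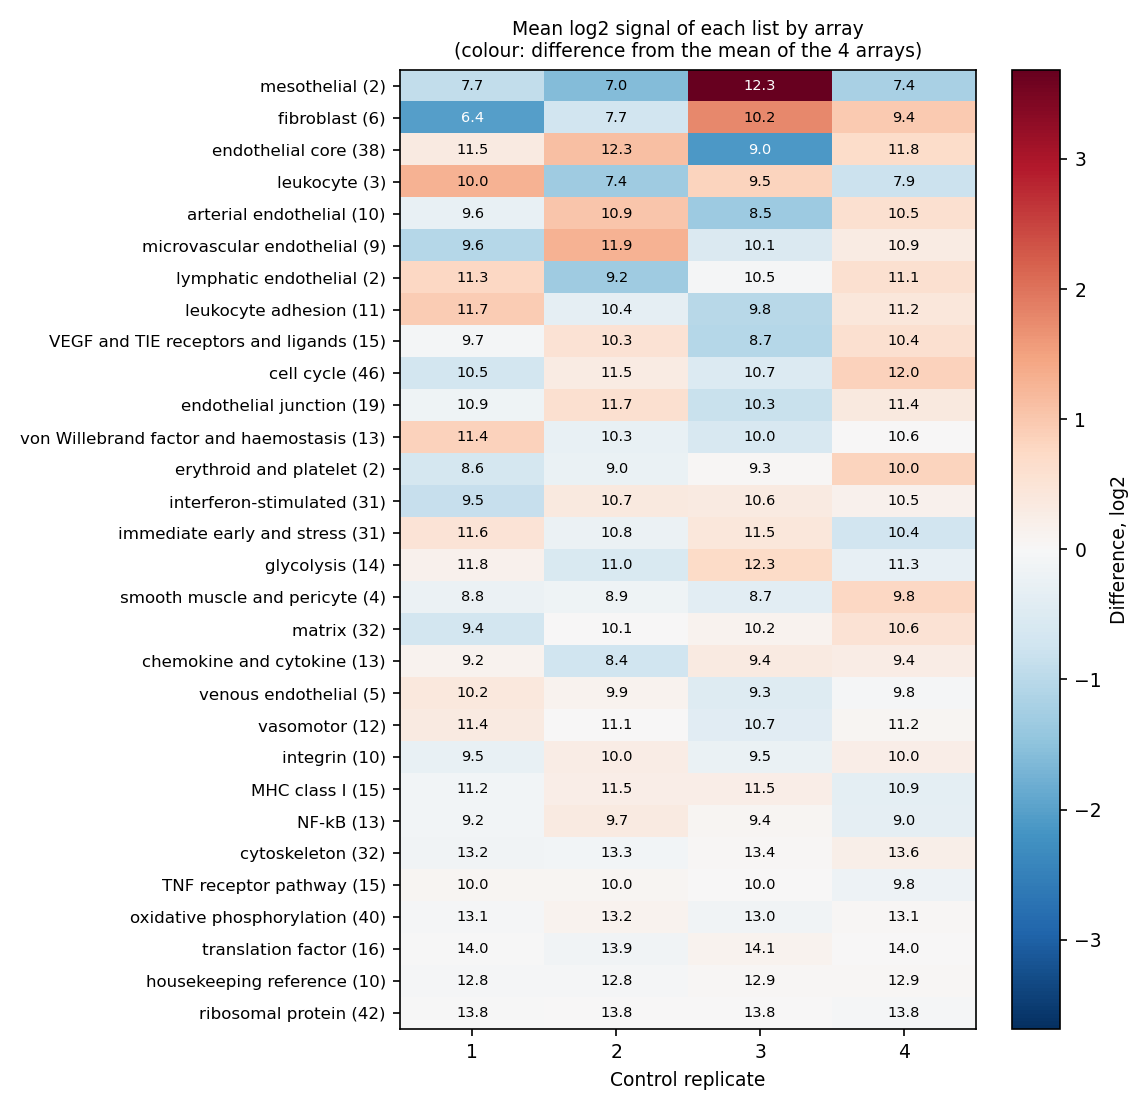
Mean log2(signal + 16) of the members of each list with means above background (numbers in cells, list size in brackets) on each control array (x axis), coloured by the difference from the mean of the 4 arrays, in order of spread. The endothelial core list falls to 9.04 on control replicate 3, while the ribosomal protein list stays between 13.78 and 13.83.

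Matrix genes had 19 of 38 members at 100 on all arrays, a share near the 47.2% of all genes. Their median SD was 1.27, beside 0.488 over all genes above background. The basement membrane collagens Col4a1, at 5323, 24668, 17693 and 17862, and Col4a2, at 5329.7, 14889, 9765 and 11342, were lowest on control replicate 1. The inhibitor Timp2 gave 15295, 15547, 10649 and 9129. Lamb1, a laminin chain, gave 16.6, 118, 6186 and 2803, at or near background on replicates 1 and 2, and the probe set next in level read 32.9, 73.8, 2254 and 1279.7. Integrin subunit Itgb1 gave 8386, 8567, 4869 and 8629, with replicate 3 apart from 3 nearly equal arrays, whose SD was 0.021.

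The steadiest genes with means of at least 1000 had SDs of 0.021 to 0.046. First was the RNA helicase gene Ddx5 at 11401, 11074, 11106 and 11042. The spliceosomal gene Snrpc followed at 4334, 4459.6, 4497 and 4387 and the elongation factor gene Eef1b2 at 15375, 14779, 15116 and 14809.5. The other 7 were Rpsa, Rpl35, Rps14, Yif1a, Camk2g, Rpl6 and Vps28. Not every probe set of such a gene was as steady: a dimmer one for Ddx5 read 3322, 7434, 4907 and 4226. Among 10 usual reference genes the median SD was 0.24, and Gusb, at 522, 3828, 2098 and 2865, and Tfrc, at 2644, 403, 1935 and 992, had an SD of 1 or more. Without replicate 1 that of Gusb was 0.43, and without replicate 2 that of Tfrc was 0.72.

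Over the 9734 genes above background the median SD was 0.488, with the middle 50% of genes between 0.317 and 0.767. An SD of 1 or more was reached by 1408 genes (14.5%). They are placed here by the widest gap among their 4 values. In 259 (18.4%) control replicate 3 was low and the other 3 high, and in 192 (13.6%) replicate 1 was. In 168 replicate 3 alone was high, in 129 replicate 1, in 119 replicate 2 and in 42 replicate 4. Replicates 2 and 4 were high together in 108 genes, and 1 and 3 in 103, whereas 2 and 3 were in 13.

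The 25 genes with the largest spread had SDs of 3.58 to 4.62, and the next, Mt2, had 3.57. Their spread chose them, so it is given as a description. Each was bright on some arrays and near 0 on others. First was Serpinh1, the collagen chaperone HSP47, at 2.5, 11453, 9435 and 12467. Control replicate 1 gave next to no signal and the other 3 were even, at least 125-fold higher at the most. A second probe set read 7.0, 10195, 7864 and 10229, and on the 8 arrays outside the control group the first read 10296 to 16527. Without replicate 1 the SD was 0.21.

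Dazl, an RNA-binding protein of germ cells, showed the converse at 15037, 38.6, 13.9 and 30.5. It was bright on control replicate 1 and at background on the other 3, at least 150-fold lower. A second probe set read 17554, 9.5, 13.7 and 3.0. On the 8 arrays outside the control group the first read 3.2 to 34.5. Without replicate 1 the SD was 0.45.

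The promoters of Serpinh1 and Dazl are shown because both genes were on or off on a single array in 2 probe sets each. They are the 250 bases before the start from RefSeq on GRCm38.p6, 5′ to 3′ on the gene's strand, which is minus for both. Serpinh1 lies at chr7:99353240-99353489 and Dazl at chr17:50293621-50293870. Capitals mark the letters CG, the site of DNA methylation in mammals, which was not measured here.
Serpinh1: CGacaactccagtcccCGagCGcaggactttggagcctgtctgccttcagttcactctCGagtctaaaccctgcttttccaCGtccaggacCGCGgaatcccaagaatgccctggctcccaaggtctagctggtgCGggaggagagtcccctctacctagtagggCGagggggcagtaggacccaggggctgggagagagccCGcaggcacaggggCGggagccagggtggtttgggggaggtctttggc
Dazl: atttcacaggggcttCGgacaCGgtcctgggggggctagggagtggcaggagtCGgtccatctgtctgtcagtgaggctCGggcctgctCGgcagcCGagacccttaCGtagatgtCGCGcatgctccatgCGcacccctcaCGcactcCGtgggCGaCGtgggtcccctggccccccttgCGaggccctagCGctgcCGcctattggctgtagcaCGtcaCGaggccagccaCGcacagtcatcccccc
Serpinh1 held 11 CG and Dazl 20, beside a median of 6 over 32851 windows of this length. At least 11 were held by 35.6% of the windows and at least 20 by 17.9%.

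Igf2, an imprinted fetal growth factor, gave 13.7, 10384, 16.7 and 187, and Igf1 42.3, 10789.6, 21.9 and 603, both bright on control replicate 2. Igfbp5, which binds them, gave 2.4, 5964, 16.9 and 62.1, likewise on replicate 2 only. Igfbp3, another binding protein, gave 35.5, 10015, 12519 and 6140.4 and was under 100 on replicate 1 alone. The actin-bundling gene Fscn1 gave 54.1, 14108, 8587 and 18780.1, with the same array under 100, and 2 of its 3 dimmer probe sets read 180.2, 1526, 1038 and 2092, and 55, 92.2, 79 and 209.7.

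A second set was high on control replicates 3 and 4 and under or near 100 on 1 and 2. It held Afp, the fetal plasma protein alpha-fetoprotein, at 2.7, 29.4, 6211 and 7703. Cd24a, a surface sialoglycoprotein, gave 3.1, 44.7, 5451 and 4788, and Ndn, the imprinted gene of necdin, 82.4, 35.4, 5100.0 and 5903. Cyba, the p22 subunit of NADPH oxidase, gave 3.9, 1.8, 1585 and 2738, and keratin 20, Krt20, 3.8, 58.2, 5903 and 2506. Col3a1 and Lamb1, described above, belong to the same set. Another probe set of Afp read 2.1, 33.5, 3517 and 4471.

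Another set was high on control replicate 3, with lower signals elsewhere. Lcn2, the siderophore-binding lipocalin, gave 1239, 30.1, 28091 and 473. Prkg2, a cGMP-dependent kinase, gave 26.3, 21.4, 11417 and 435. The peptidase gene Folh1 gave 10.0, 1.3, 4721 and 129.6 and Ms4a4d 16.7, 1.7, 8312 and 123.

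The remaining genes of the 25 were high on control replicate 1, 2 or both, or on 1 with another array. Ctsz, a lysosomal protease, gave 1038, 10921, 1.3 and 12.8, and Ripk3, the kinase of necroptosis, 12764, 1059.7, 16.9 and 15.5. The antitrypsin gene Serpina1b gave 5051, 1258, 16.2 and 9.6. Chchd10, a mitochondrial protein, was high on replicates 1 and 3 at 10429, 58.5, 6264 and 54.6, and Pdlim4 on 1 and 4 at 1923, 9.1, 4.2 and 2363. Maoa, monoamine oxidase A, was under 100 on replicate 2 only at 10123, 13.6, 4621 and 2059.7, and Fam167b on 3 only at 2767, 9832, 13.5 and 2998.

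**Figure D5:**
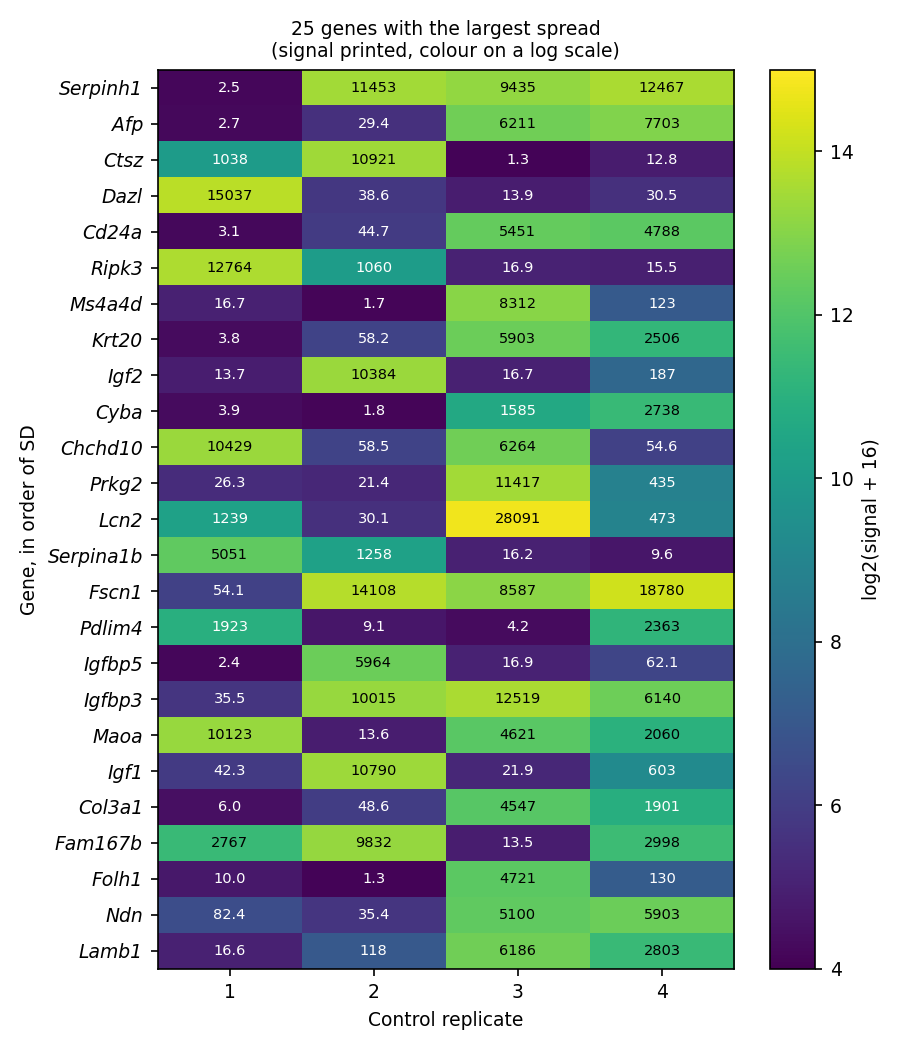
Signal of the 25 genes with the largest SD (y axis, in order of SD) on each control array (x axis), with the signal printed in each cell and the colour on the log2(signal + 16) scale. Every gene passes from under 100 on at least 1 array to over 1000 on another, as Serpinh1 does from 2.5 on control replicate 1 to 12467 on replicate 4.

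Genes seen on 1 array only were also counted over all genes, with limits set after the values were seen: at least 1000 on one array and at most 50 on the other 3. Control replicate 3 had 12 such genes, replicate 2 had 5, replicate 1 had 4 and replicate 4 had 1. On replicate 3 they included the acute-phase genes Orm1, at 41.7, 26.5, 2497 and 33.3, Serpina3n, at 10.6, 4.0, 3555 and 35.8, and Itih4, at 5.8, 3.5, 1229 and 11.8. Its others included Aldh1a1, the related Aldh1a7 and keratin 23, Krt23. On replicate 1 they were Dazl, Gnai1, Stfa2l1 and Pik3ap1, and on replicate 4 the neurofilament gene Nefl.

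The converse, a gene missing on 1 array and at 1000 or more on the other 3, was met by 5 genes on control replicate 3, 4 on replicate 1, 1 on replicate 2 and 0 on replicate 4. Those missing on replicate 3 were Clec14a, Slco4a1, Fam167b, Rasgrp3 and Ushbp1. Rasgrp3, a RAS activator known in blood vessels, gave 2434, 4249, 30.2 and 2015. On replicate 1 they were Igfbp3, Serpinh1, Sprr1a and Sncg. Sncg, gamma-synuclein, gave 20.5, 1534, 2291 and 1367.

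Separate probe sets of a gene were compared as a check on single probes. Of the genes with an SD of 1 or more, 519 had another probe set with a mean above background. In 455 of them it was highest on the same array, in 432 lowest on the same array, and in 381 (73.4%) both. Levels were compared over a wider set, the 6263 genes with several probe sets. There the 2 brightest differed by a median of 2.26-fold, and in 33.1% by over 4-fold.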

How the data were processed

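The authors deposited linear signal intensities for each probe set on each array, computed with MAS5 per the submitters' processing notes. Settings and version are not given in the sources used here. Each deposited array had a 2% trimmed mean of 1000. Here 64 control probe sets were left out and the 4 control arrays brought to 500, and means and SDs are of log2(signal + 16). The platform annotation gave 1 symbol for 34945 of 45101 probe sets, several for 932 and none for 9160. A gene is represented by its probe set of highest mean, for 18193 genes in all. Spread is the SD over 4 arrays, for genes with means of at least that of a signal of 100, since no detection calls were used. With 4 arrays in 1 group the precision is limited by their number, and no test between groups was run. Dixon's ratio was used to mark an array far from the other 3.

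Genes are named by rule: the 25 highest means, the 25 largest and 10 smallest SDs, 5 endothelial markers, the 4 brightest and 2 most variable of each of 33 lists, and TNF, adhesion, reference and sex-linked genes. Genes that define a cell type, or that were seen on a single array, were added after their values were seen. Members and lists were chosen with earlier results of these data known. Promoters are from RefSeq (GRCm38.p6). The steps were tested on simulated data and run in Python 3.11.15 with pandas 2.3.3 and numpy 2.4.6. Other normalizations, pseudocounts, signal limits, probe set choices and left-out arrays were tried.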

Additional observations from a re-analysis of the deposited data

Results flagged for a closer look

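In 20 named genes and list means, 1 of the 4 control arrays lay far from the other 3, by Dixon's ratio of the gap to the range at its 95% limit, which chance exceeds in about 1 of 20 groups. They are 20 of 196 named genes and 30 list means. Of the 18 genes, 11 were named for their spread on these same arrays, so that rate does not apply to them and the values are a description. Their causes were not tested.

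On control replicate 1 the far values were those of Serpinh1 (ratio 0.957), Dazl (0.903), Igfbp3 (0.871), Fscn1 (0.86), Fabp4 (0.838), Rps27 (0.835) and the mean of the interferon-stimulated list (0.836, over the 31 members with means above background). Over all 34 measured members the ratio was 0.819, under the limit. Dazl and Rps27 were high there and the rest low.

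On control replicate 3 the endothelial genes Pecam1 (0.939), Nrp2 (0.927), Cd34 (0.915), Emcn (0.852) and Mcam (0.831) were low, as were Itgb1 (0.95) and S100a4 (0.833). Krt19 (0.898), Csf1 (0.862) and the mean of the mesothelial list (0.869) were high there. That mean covers the 2 of 15 members with means above background, Krt19 and Msln, and over all 15 the ratio was 0.743, under the limit. On control replicate 2 Lyve1 (0.849) and Tubb3 (0.835) were low and Tnip1 (0.872) was high. No value was apart on control replicate 4.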

How the results depend on the processing

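The 4 arrays, the stand-in for background and unequal probe binding limit these values. The 8592 genes at 100 on all arrays went to 9634 at a limit of 50 and 6825 at 250, and to 7336 with the mean of all probe sets. The median SD of 0.488 became 0.453 with a pseudocount of 64 and 0.446 with the mean of all probe sets. The 1408 genes with an SD of 1 or more became 2150 with no filter on level. The lowest correlation between arrays, 0.725, became 0.776 at a limit of 50 and 0.685 at 250. Leaving out 1 array at a time gave 8704 to 8842 genes, median SDs of 0.427 to 0.492, 1235 to 1598 genes with an SD of 1 or more, lowest correlations of 0.713 to 0.792, and 29 to 36 of 38 endothelial core genes at 100 on the arrays left. Quantile normalization and equal medians moved none of these 5 values by more than their spread over the left-out arrays or, for counts, by 1.5 times. Of 2020 values for the level of 202 named genes, 89 moved by more than their SD, 73 of them with the mean of all probe sets. Of 2020 values for their spread, 220 moved by over 1.5 times, 48 of them without control replicate 3. Of the lists' 330 counts at 100, 15 moved by over 1.5 times, and of their 330 median percentiles 74 moved by more than their spread over the left-out arrays. The counts for single arrays, chosen after seeing the data, rose from 22 genes high on 1 array and 10 low on 1 array to 43 and 19 at limits of 1000 and 100, and to 83 and 43 at 500 and 100. No paired analysis was possible because the arrays form 1 group and their numbers follow accession order.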
